A study of Mus musculus with 2 samples.

Results

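The mitochondrial ribosomal protein genes of the mouse were taken as the protein-coding genes whose symbol begins with Mrpl or Mrps followed by a number, and 78 genes met this rule, 49 named Mrpl and 29 named Mrps, among 22015 protein-coding genes outside the mitochondrial chromosome and 55536 genes in all. Their RNA was measured by total RNA sequencing in the gastrocnemius, a muscle of the calf, from B6CASTF1/J males at 2 months of age. B6CASTF1/J is a first-generation hybrid of an inbred laboratory strain and a wild-derived strain, and the tables do not separate the alleles of the parents. The design holds 1 group of 2 libraries, called replicate 1 and replicate 2, for each of which 300 ng of RNA was used with an ERCC spike-in mix, and there is no treatment, genotype or control to compare. The labels describe separate tissue samples under the same donor entry, so the differences given here are between these libraries and their p-values cover counting error only.

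Mitochondrial ribosomes stand in the mitochondrial matrix and translate the few mRNAs of the mitochondrial genome, all of which encode subunits of the respiratory chain and the ATP synthase. Their ribosomal RNAs come from the mitochondrial genome, whereas all of their proteins come from nuclear genes, are made on cytosolic ribosomes and are imported. Many of these proteins have a counterpart in the bacterial ribosome, and others exist only in mitochondria, so the genes are grouped here by subunit and by that distinction. The symbols do not always follow the structure: Mrps30 and Mrps18a encode proteins of the large subunit, and Mrps36 encodes a component of the 2-oxoglutarate dehydrogenase complex rather than a ribosomal protein. With those placed by structure, the large subunit held 51 of the genes and the small subunit 26.

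The genes were spread over 17 chromosomes, with 11 on chromosome 11, 8 on chromosome 17 and 7 on chromosome 6. RefSeq promoters, running from 250 bases before to 50 bases after the annotated start, were matched by symbol for 69 of the 78 genes. Motifs of factors known for nuclear genes of mitochondria were searched on both strands. The 10-base NRF-1 motif (GCGCA, then any base, then GCGC) lay in 13 of the 69 promoters (18.8%), beside 12.0% of 7779 promoters of expressed protein-coding genes and 6.91% of all 16522. The ETS-family motif CCGGAAG lay in 24 (34.8%), beside 20.2% and 12.3%. The YY1 motif AANATGGCG lay in 11 (15.9%), beside 6.23% and 3.44%. At least 1 of these 3 motifs was found in 40 of the 69 promoters (58.0%) and in 33.6% of expressed genes. The CCAAT box was equally frequent in the members (39.1%) and in expressed genes (39.0%), TATAAA lay in 5.80% against 6.72%, and the ERR motif TCAAGGTCA in none of the 69 and in 0.219% of expressed genes. A match is a string of letters and was not tested as a binding site.

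The stretches below show the NRF-1 motif in capitals, on either strand, in the promoters of the most abundant small-subunit gene (Mrps21), the second most abundant large-subunit gene (Mrpl30), the stalk protein gene Mrpl12 and Mrpl17, and they end at the base before the RefSeq start (GRCm38.p6). Their positions are chr3:95871515-95871625 on the minus strand, chr1:37890374-37890476 on the plus strand, chr11:120484536-120484636 on the plus strand and chr7:105811088-105811187 on the minus strand.
Mrps21: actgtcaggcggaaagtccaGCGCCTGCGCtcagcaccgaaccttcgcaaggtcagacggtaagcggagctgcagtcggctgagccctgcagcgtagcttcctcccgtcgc
Mrpl30: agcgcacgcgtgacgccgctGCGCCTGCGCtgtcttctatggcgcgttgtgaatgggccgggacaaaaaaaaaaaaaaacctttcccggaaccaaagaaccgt
Mrpl12: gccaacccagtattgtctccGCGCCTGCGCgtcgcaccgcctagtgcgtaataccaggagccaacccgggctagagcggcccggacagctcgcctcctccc
Mrpl17: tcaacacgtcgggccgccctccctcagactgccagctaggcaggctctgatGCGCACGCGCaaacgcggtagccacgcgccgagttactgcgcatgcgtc

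Members often stood close to another promoter. In 23 of the 78 genes (29.5%) the start of a protein-coding gene on the opposite strand, transcribed away from the member, lay within 1000 nt or overlapped it by at most 200 nt, compared with 12.9% of 9811 expressed protein-coding genes and 7.92% of all. Of these 23 neighbours, 18 had a TPM (a length-scaled share of the library's transcripts) of at least 1 in both libraries. Some encode other mitochondrial proteins: Sars2, the mitochondrial seryl-tRNA synthetase, started 172 nt from Mrps12, Ptcd2 81 nt from Mrps27, and Ndufs6, a complex I subunit, overlapped the start of Mrpl36 by 29 nt (a distance of -29 nt). Others do not, such as Fau beside Mrpl49 at 59 nt and Psma2, a proteasome subunit, beside Mrpl32 at 75 nt. By RefSeq starts the large-subunit gene Mrpl46 and the small-subunit gene Mrps11 are separated by 41 bases at chr7:78783090-78783130, printed on the plus strand because a gene of each subunit starts at its ends. In the GENCODE annotation their exons overlap by 173 nt.
Gap between Mrpl46 and Mrps11: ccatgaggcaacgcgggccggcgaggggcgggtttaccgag

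Values came from 2 kinds of table: a first kind with expected counts and TPM per gene and transcript, and a second kind with estimated counts and TPM per transcript, summed here to genes. Values are from the first kind unless stated. Reads assigned to genes numbered 42724520 in replicate 1 and 42280091 in replicate 2, of which the 78 genes held 57610 (0.135%) and 64662 (0.153%). A member held 648 reads at the median in replicate 1 and 704 in replicate 2, with extremes of 37 and 2346 and of 98 and 2578. Of the genes that define skeletal muscle, Acta1 (muscle actin) had 18490 and 16650 TPM and Ckm (muscle creatine kinase) 18710 and 14860. Adipocyte markers summed to 0.980 and 0.600 TPM and were near 0.

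All but 1 member had a TPM of at least 1 in both libraries, the exception being Mrpl23, and the genes together reached 2063 TPM in replicate 1 and 2286 in replicate 2 (mean 2174 ± 158, SD, n = 2). That was 0.504% and 0.591% of the TPM of protein-coding nuclear genes. The median member had a mean TPM of 22.0, compared with 7.54 for expressed protein-coding genes, 156 for 82 cytosolic ribosomal protein genes and 380 for 21 nuclear genes of oxidative phosphorylation. Levels lay close together: 61 of the 78 genes had a mean TPM between 10 and 50, 9 were above and 8 below, and the quartiles were 13.5 and 32.5 TPM, a 2.41-fold span against 5.62-fold for expressed protein-coding genes. The span was 2.41-fold in the nuclear genes of oxidative phosphorylation and 2.46-fold in the cytosolic ribosomal protein genes. It was 2.53-fold in protein-coding genes with reads between the 10th and 90th percentile of the members' reads. A span this narrow is therefore not particular to the members. In 74 genes both libraries were above the median of expressed genes, and the 4 that lay below it in both were Mrpl19, Mrps30, Mrpl39 and Mrpl23.

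**Figure D1:**
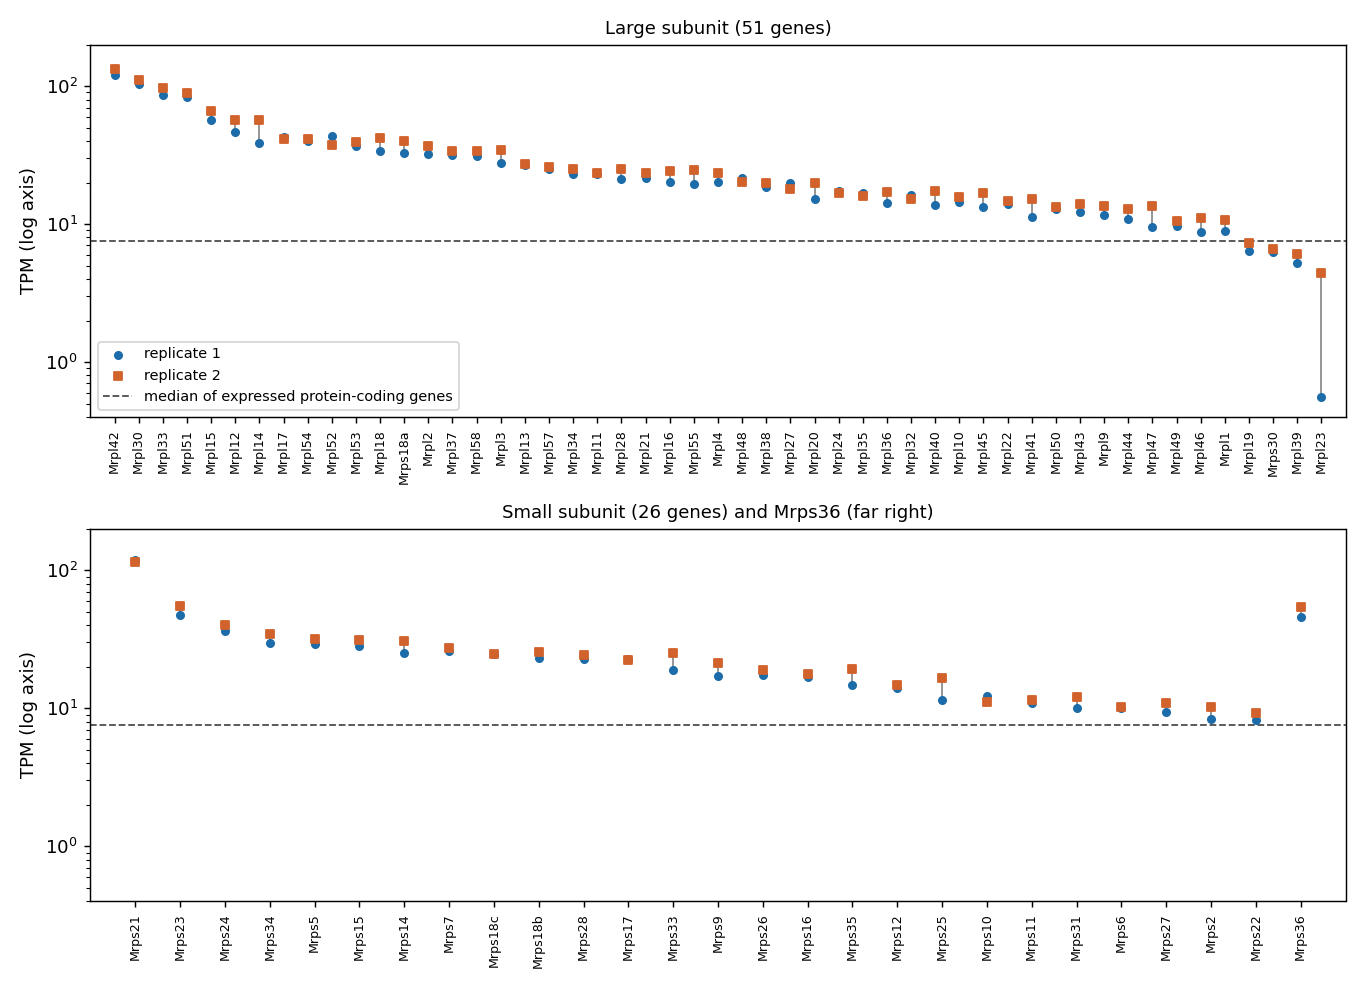
TPM (log axis) of each of the 78 genes in replicate 1 (circles) and replicate 2 (squares), ordered by mean within the large subunit (top) and the small subunit (bottom, with Mrps36 at the far right); the dashed line is the median of expressed protein-coding genes, 7.54 TPM. The libraries lie close together at every gene except Mrpl23, and 4 genes lie below the line.

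Among genes of the large subunit, Mrpl42, a mitochondria-specific protein, had the highest level, with 120.5 TPM in replicate 1 and 132.5 in replicate 2, and ranked 383 among protein-coding genes. Mrpl30, a counterpart of bacterial L30, followed with 104 and 111.5 TPM. Mrpl33, the counterpart of L33, had 86.6 and 97.6 TPM. These 3, with Mrpl51 (84.1 and 89.6 TPM) and Mrpl15 (57.0 and 65.7 TPM), were the 5 highest of the subunit, and all were higher in replicate 2. At the other end stood Mrpl23 (0.560 and 4.45 TPM), Mrpl39 (5.25 and 6.12 TPM), Mrps30 (6.29 and 6.55 TPM), Mrpl19 (6.34 and 7.25 TPM) and Mrpl1 (8.85 and 10.6 TPM). Mrpl12 encodes the stalk protein that recruits translation factors and is present in several copies per ribosome, unlike the other proteins. Its level was 46.9 and 57.2 TPM, above the upper quartile of the members (32.5) and below the 5 highest of its subunit. That place depended on the kind of table. In the second tables Mrpl12 had 93.25 and 109 TPM, above Mrpl15 with 66.96 and 72.03.

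In the small subunit Mrps21, the counterpart of bacterial S21, stood apart with 119 and 115 TPM. It was followed by the mitochondria-specific Mrps23 (47.7 and 54.7 TPM), then Mrps24 (36.2 and 39.9 TPM), Mrps34 (29.7 and 34.5 TPM) and Mrps5 (29.0 and 31.6 TPM). The gap between Mrps21 and Mrps23 was wider than any other between neighbours in this subunit's order. The 5 lowest were Mrps22 (8.26 and 9.21 TPM), Mrps2 (8.33 and 10.2 TPM), Mrps27 (9.39 and 10.9 TPM), Mrps6 (10.1 and 10.2 TPM) and Mrps31 (10.1 and 12.0 TPM), and neighbours in this order overlapped in their ranges over the libraries. The upper order was in part different in the second tables. There Mrps7 (50.78 and 49.55 TPM) and Mrps15 (44.17 and 48.63 TPM) were above Mrps34 (39.13 and 44.07 TPM) and Mrps5 (31.38 and 33.19 TPM). The paralogues of bacterial S18 are assembled at different places in the ribosome. Mrps18a, in the large subunit, had 33.0 and 40.2 TPM, while Mrps18b and Mrps18c, in the small subunit, had 23.0 and 25.4 and 24.5 and 24.7 TPM. Mrps18a was therefore above both in each library, while the other two did not separate. Mrps36, the dehydrogenase component, had 46.2 and 54.2 TPM, below Mrps21 and Mrps23 and above the other small-subunit genes in both libraries. Its order with Mrps23 depended on the kind of table. In the second tables Mrps36 had 98.66 and 118.4 TPM and Mrps23 82.8 and 93.24.

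The large subunit summed to 1402 TPM and the small subunit to 614 in replicate 1, a ratio of 2.28, and to 1561 and 671 in replicate 2, a ratio of 2.33. Since the large subunit has more genes, the median genes are closer: 20.2 TPM against 18.2 in replicate 1 and 23.4 against 21.8 in replicate 2. The mitochondrial ribosomal RNAs lay far above the proteins' mRNAs. mt-Rnr2, the large-subunit rRNA, had 62240 and 84020 TPM, which was 3080 and 3590 times the median large-subunit gene, and mt-Rnr1, of the small subunit, 40670 and 54080 TPM, or 2230 and 2480 times the median small-subunit gene. The rRNAs stood at 1.53 and 1.55 to 1. Whether ribosomal RNA was depleted before sequencing cannot be read from the labels beyond the name of the spike-in mix, and such a step would change the rRNA values.

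Across the 78 genes, log2(TPM + 1) correlated between the libraries with a Pearson r of 0.974 and a Spearman rho of 0.983, and with 0.987 without Mrpl23. The log2 of mean TPM and the log2 of mean effective length correlated at r = -0.639 in these genes (n = 78) and at -0.215 in 9811 expressed protein-coding genes. The genes share library and depth, TPM is itself divided by length, and these correlations are descriptions.

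Mrpl23, which encodes a protein at the exit of the peptide tunnel, was the gene whose value depended most on the table. In the first tables it held 37 reads in replicate 1 and 98 in replicate 2, with a posterior SD of the count of 47.3 and 45.9, and its processed pseudogene Mrpl23-ps1 held 848 and 758. In the second tables Mrpl23 held 960 and 907 reads and the pseudogene 0 in both. The pseudogene (chr2:74591330-74591909, minus strand) matched Mrpl23 (chr7:142532686-142540747, plus strand) at 100% over 540 aligned bases, with 0 mismatches, as the first 60 coding bases of transcript Mrpl23-201 and the aligned stretch of the pseudogene show (GENCODE M21 transcripts).
Mrpl23-201: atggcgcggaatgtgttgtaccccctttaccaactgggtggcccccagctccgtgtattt
Mrpl23-ps1-201: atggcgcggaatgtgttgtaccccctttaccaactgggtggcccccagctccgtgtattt

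With no difference between these stretches, reads from them cannot be told apart, and the tables placed them on different genes. Added together, gene and pseudogene held 885 and 856 reads, or 51.9 and 50.3 TPM, of which 95.9% and 88.6% of the reads were on the pseudogene in the first tables. At that sum Mrpl23 would stand beside Mrpl12 rather than at the bottom of its subunit. By the first kind of table, 36.1 of the 37 reads of replicate 1 lay on the retained-intron transcripts Mrpl23-203 and Mrpl23-205, and 67.6 of the 98 reads of replicate 2 on the coding transcripts Mrpl23-201 and Mrpl23-207.

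Near-identical processed pseudogenes, with at least 95% identity over at least 200 bases, were found for 18 members (23 pseudogenes), and 6 of these pseudogenes held at least 10 reads in both libraries in the first tables, against 1 in the second. They were the copies of Mrpl23, Mrpl48 (89.1 and 90.7 reads), Mrps10 (73.9 and 58.0), Mrps5 (46.9 and 59.1), Mrps33 (34.6 and 51.3) and Mrpl42 (11.3 and 14.7), so the values of these members are uncertain by about those reads. Mrps33, a mitochondria-specific protein of the small subunit (chr6:39801804-39810988, minus strand), had 496 and 616 reads with a posterior SD of 11.9 and 13.3. Its copy Gm5776 (chr7:54412158-54412478, minus strand) differs at 1 of 321 aligned bases, which is in capitals here.
Mrps33-201: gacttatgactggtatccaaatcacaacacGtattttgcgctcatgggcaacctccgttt
Gm5776-201: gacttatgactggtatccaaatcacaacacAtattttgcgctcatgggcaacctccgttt

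Overlapping genes also share sequence with members. Exons of 33 members overlapped an exon of another gene, and in 28 the other gene lay on the opposite strand. In 16 that gene was protein-coding with a TPM of at least 1 in both libraries. Nr2c2 overlapped 69.8% of the exon bases of Mrps25, Mapk8ip3 63.4% of those of Mrps34, and Gcfc2 36.0% of those of Mrpl19. The sources used here do not say whether the counting used strand, so these values are uncertain. Mrpl53 lay within the read-through gene Gm42688, which held 59.9 and 41.7 reads in the first tables and 330 and 342 in the second, where Mrpl53 held 580 and 622.

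The kinds of table ordered the genes with a Spearman rho of 0.878 in replicate 1 and 0.874 in replicate 2. After scaling both to protein-coding nuclear genes, the second tables were at a median log2 difference of -0.06 from the first, and 69 of 78 genes (88.5%) were within 0.5, compared with 91.2% of expressed protein-coding genes. Over 2-fold differences were found in 3 genes (3.85%), compared with 1.54% of expressed protein-coding genes. The 3 were Mrpl23 (log2 4.38), Mrpl17 (-1.07), and Mrpl27 (1.03), counterparts of bacterial ribosomal proteins. Mrpl17 had 42.5 and 41.2 TPM in the first tables and 33.6 and 30.3 in the second, from nearly equal reads (1095 and 1103 against 1177 and 1144). Mrpl27 had 19.8 and 18.0 TPM and then 65.2 and 58.7, again from similar reads (437 and 400 against 450 and 415). The leading transcript of Mrpl17 was Mrpl17-204 of 459 nt (58.1% of its TPM) in the first tables and Mrpl17-203 of 869 nt (86.6%) in the second, and Mrpl27-201 held 95.2% and 38.9% of the TPM of Mrpl27. The next largest differences were those of Mrpl35 (0.60), Mrps10 (0.58) and Mrpl3 (0.55) upward and of Mrps5 (-0.59), Mrpl49 (-0.52), Mrpl15 (-0.50) and Mrpl16 (-0.44) downward.

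**Figure D2:**
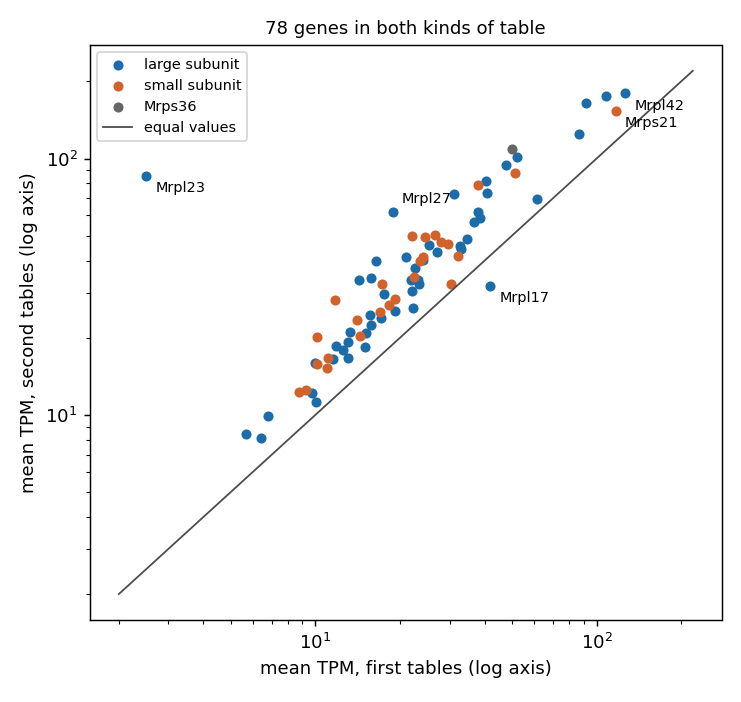
Mean TPM over the libraries of the 78 genes in the first tables (horizontal, log axis) and the second tables (vertical, log axis), with unscaled TPM in both and the line of equal values. Most genes run parallel to and above the line, and Mrpl23 (2.50 TPM against 85.5) is the farthest from the rest, with Mrpl17 below the line and Mrpl27 above the band.

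The annotation holds 343 transcripts of these genes, of which 170 are coding, 88 carry a retained intron, 61 are processed transcripts and 24 are marked for nonsense-mediated decay, the pathway that degrades mRNAs with early stops. The most abundant transcript was the same in both kinds of table for 56 genes, or 53 of the 75 with more than 1 transcript. It was not annotated as coding in 16 genes (20.5%) by the first tables and 18 (23.1%) by the second, compared with 6.43% and 8.68% of expressed protein-coding genes. In 10 genes the same such transcript led in both. They were Mrpl15, Mrpl32, Mrpl35, Mrpl47, Mrpl51, Mrpl57, Mrps16, Mrps24, Mrps25 and Mrps26. The ranking is by TPM, which is divided by length, and by reads a longer coding transcript held more in some of them. It did in Mrpl35 (690 and 749 reads against 236 and 210), Mrpl47 (347 and 517 against 92 and 126) and Mrps25 (273 and 279 against 128 and 193). These reads are from the first tables, and the order was the same in the second.

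Mrps26 had 96.8% of its TPM on the retained-intron transcript Mrps26-201 in the first tables (96.7% in replicate 1 and 96.9% in replicate 2) and 97.0% in the second. Mrps16 had 96.0% and 99.1% on the processed transcript Mrps16-202, and Mrpl57 95.8% and 96.9% on the retained-intron transcript Mrpl57-202. Mrpl32 had 83.1% and 82.9% on Mrpl32-201, a transcript marked for decay. The tables differed for 22 genes, namely Mrpl1, Mrpl3, Mrpl13, Mrpl17, Mrpl19, Mrpl23, Mrpl24, Mrpl33, Mrpl38, Mrpl48, Mrpl52, Mrpl55, Mrps5, Mrps7, Mrps11, Mrps12, Mrps14, Mrps17, Mrps21, Mrps23, Mrps33 and Mrps35. Among them Mrps14 put 93.6% on Mrps14-201, marked for decay, in the first tables and 86.6% on the coding Mrps14-202 in the second, and Mrpl38 put 86.0% on the coding Mrpl38-201 and then 81.6% on the retained-intron Mrpl38-205. Transcripts not annotated as coding held 23.6% of the members' TPM in the first tables and 28.8% in the second, against 12.6% and 15.0% over expressed protein-coding genes, and 23.3% and 23.8% in replicate 1 and replicate 2 of the first. At the other end, 41 of the 78 genes had at least 90% of their TPM on coding transcripts in both kinds of table.

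**Figure D3:**
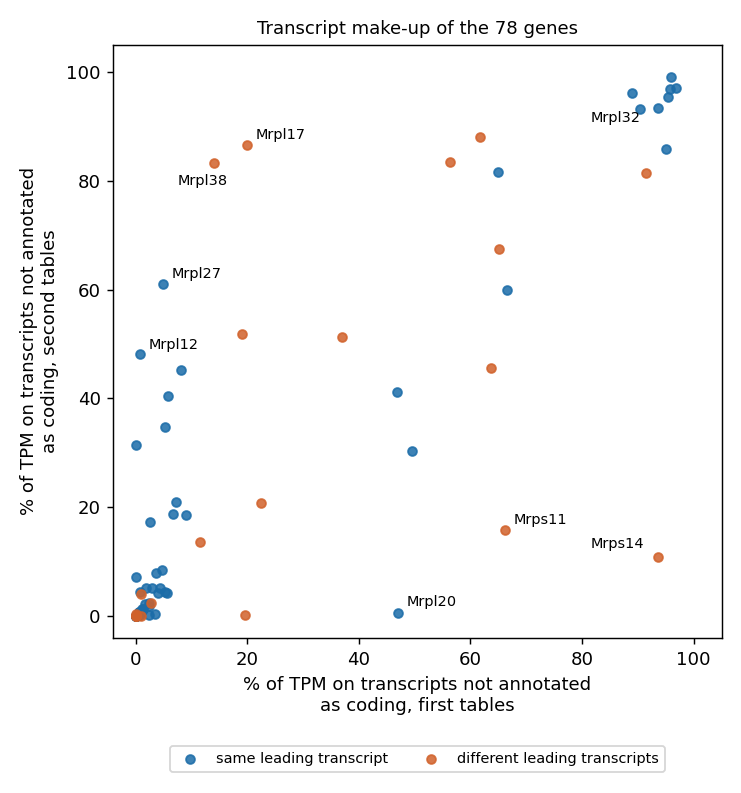
Share of each gene's TPM (percent) on transcripts not annotated as coding in the first tables (horizontal) and the second (vertical); blue genes have the same leading transcript in both, orange genes do not. Genes at the upper right, such as Mrpl32, are put mostly on such transcripts by both, while Mrps14 and Mrps11 (lower right) and Mrpl17 and Mrpl38 (upper left) are placed differently.

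Between the libraries the genes lay mostly higher in replicate 2. An exact two-sided binomial test of the reads, given TMM-scaled library sizes and adjusted by Benjamini-Hochberg over 14827 genes, called 47 of 78 (60.3%) higher in replicate 2, 0 higher in replicate 1 and left 31 uncalled, beside 14.5% of all genes higher in replicate 2 and 11.7% higher in replicate 1. Among genes in the members' range of reads the shares were 17.6% and 11.5%. The second tables called 52 higher in replicate 2 and 0 higher in replicate 1, beside 14.6% and 10.3% of all genes, and 46 of the 47 were called in both. The median log2 ratio was 0.21 over the members and 0.00 over all genes tested, and 74 of the 78 ratios were above 0. The test covers counting error alone. Variation between the libraries beyond counting error, as a coefficient of variation common to the genes tested, was 0.150. Markers of slow muscle fibres were higher in replicate 2 as well, at a median log2 ratio of 1.36.

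By subunit and origin the called genes numbered 19 of 29 in the large subunit with a bacterial counterpart (median log2 ratio 0.24), 15 of 22 in the large subunit without one (0.23), 5 of 16 in the small subunit with one (0.15) and 7 of 10 in the small subunit without one (0.27). Mrps36 was called as well, at 908 and 1069 reads (log2 ratio 0.28). Of the S18 paralogues, only Mrps18c was counted as having a bacterial counterpart. Mrps18a and Mrps18b were counted among the genes without one, so the split by origin depends on that choice.

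Beyond Mrpl23, whose log2 ratio of 1.44 (adjusted p = 3.97e-07, exact binomial) became 0.00 (95% interval -0.14 to 0.14) when the pseudogene was added and 0.00 in the second tables, the largest ratio was that of Mrpl47, in the large subunit, with 448 and 651 reads (9.60 and 13.4 TPM) and a log2 ratio of 0.59 (adjusted p = 3.23e-10, exact binomial). Mrpl14, the counterpart of L14 at the subunit interface, had 653 and 920 reads (39.0 and 56.5 TPM), a log2 ratio of 0.54 (adjusted p = 2.14e-12, exact binomial). Both hold in the second tables at 0.55 and 0.57. Next came Mrpl41 (257 and 353 reads, 0.51), Mrpl20 (302 and 387, 0.41), Mrps35 (422 and 541, 0.41) and Mrpl46 (311 and 397, 0.40) with Mrpl55 (481 and 615, 0.40). Exons of Ndufb5, itself at 205 and 246 TPM, overlap 13.9% of the exon bases of Mrpl47 on the other strand, and exons of Tmem63b 11.2% of those of Mrpl14. The ratio of Mrpl14 is that of all its transcripts. Its coding transcript Mrpl14-201 held 413 and 490 reads, and its processed transcript Mrpl14-202 held 235 and 423. Mrpl12 had 1954 and 2382 reads and a log2 ratio of 0.33 (adjusted p = 5.06e-13, exact binomial).

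Ratios below 0 were found for 4 genes, none called: Mrps10 (474 and 406 reads, -0.17), Mrpl52 (470 and 404, -0.17), Mrpl27 (437 and 400, -0.08) and Mrps18c (418 and 395, -0.03). The 95% intervals of all 4 include 0, so 0 genes were higher in replicate 1 at an unadjusted p under 0.05. Mrps21, the most abundant small-subunit gene, was at 1325 and 1323 reads, a log2 ratio of 0.05.

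**Figure D4:**
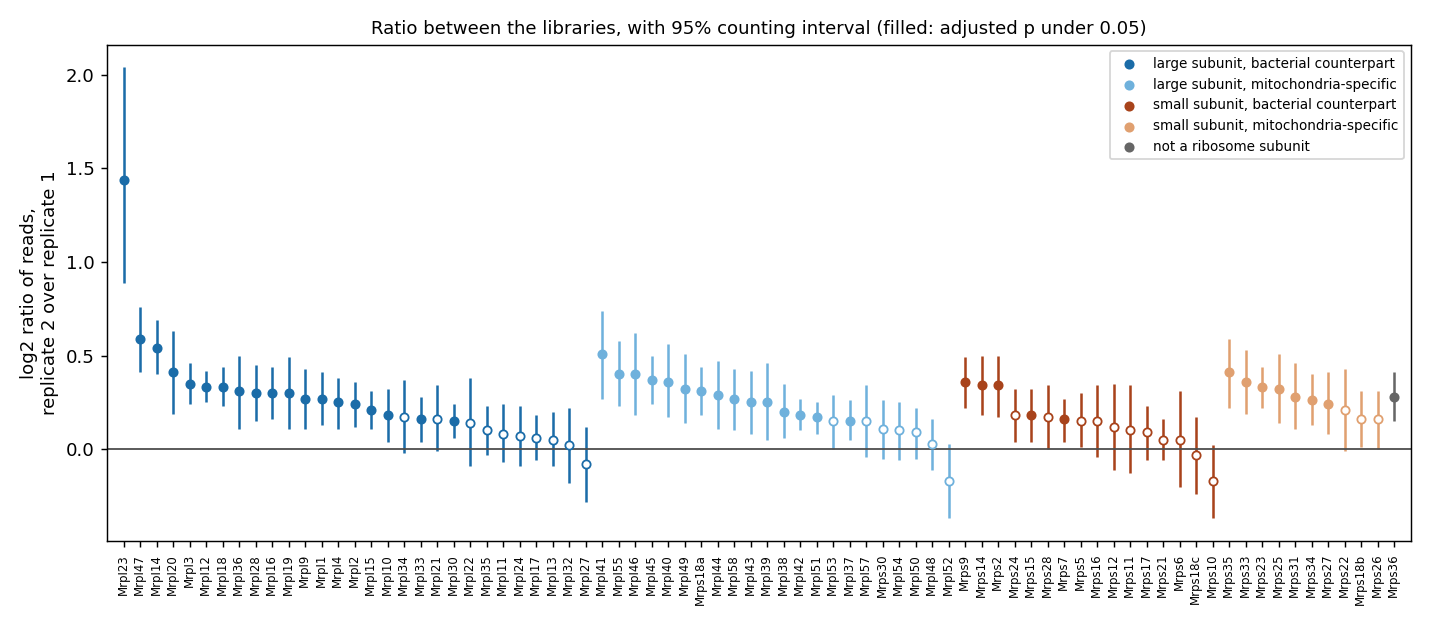
Log2 ratio of reads, replicate 2 over replicate 1, for each of the 78 genes by subunit and origin, with its 95% counting interval; filled symbols passed an adjusted p under 0.05 and open ones did not. Of the 78, 74 lie above 0, and Mrpl23 stands apart at 1.44 with the widest interval.

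The partners of the ribosome were read in the same way. Of 5 ribosome subunits with other symbols, Chchd1 (0.05), Dap3 (0.06) and Aurkaip1 (0.07) did not pass the test, while Ptcd3 (1782 and 2114 reads, 0.29) and Gadd45gip1 (524 and 690 reads, 0.45) were higher in replicate 2. Of 26 assembly and rRNA modification genes 5 passed, all higher in replicate 2 (19.2%, median 0.13). That share is near the 17.6% of genes in the members' range of reads, so the calls give no result about this list. Many of its genes held fewer reads than the median member. Of the 26 ratios, 25 were above 0 (96.2%), beside 94.9% of the members and 50.2% of all genes tested. The 5 that passed included Mettl15, an rRNA methyltransferase, at 77 and 155 reads (1.05), Mrm1 at 191 and 259 (0.49) and C1qbp at 1338 and 1571 (0.28). Of 15 translation factors 8 passed (53.3%, median 0.22), among them the elongation factors Tufm (2273 and 2832 reads, 0.37) and Tsfm (194 and 254, 0.44), and of 17 aminoacyl-tRNA synthetases 5 passed (29.4%, median 0.20), such as Lars2 (1130 and 1443, 0.40).

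The mitochondrial rRNAs and mRNAs were higher in replicate 2 too: mt-Rnr2 had a log2 ratio of 0.48 and mt-Rnr1 0.46, and all 13 mitochondrial mRNAs passed (median 0.25). So did all 21 nuclear genes of oxidative phosphorylation (median 0.38), for example Atp5b with 64049 and 79371 reads (0.36). Of all genes tested, 14.5% passed in this direction. These lists hold many reads, where small ratios pass, such as 0.08 for mt-Nd3 (32786 and 33591 reads). From the first tables to the second, mt-Nd3 went from 0.08 to 1.39, mt-Co3 from 0.84 to 0.37 and mt-Co2 from 1.04 to 0.42. In the second tables mt-Atp8 had 0 TPM and the other 12 mitochondrial mRNAs passed. The cytosolic ribosomal proteins had 28 of 80 higher in replicate 2 and 2 higher in replicate 1 (median 0.08).

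Markers of slow fibres, an oxidative fibre type, differed most. All 7 were higher in replicate 2 (median log2 ratio 1.36, summed TPM 1246 and 3175), Myh7 with 204 and 529 TPM. All 7 listed fast-fibre markers were higher in replicate 1 (median -0.34, summed TPM 64390 and 49920). Myh1, a fast myosin kept in the general muscle-fibre list, went the other way, with 574.6 and 1076 TPM (log2 ratio 0.95). All 3 tendon markers were higher in replicate 2 (summed TPM 27.4 and 50.6) and 3 of 4 fibroblast markers higher in replicate 1. Of 4 endothelial markers, Kdr (log2 ratio 0.47), Cdh5 (0.25) and Pecam1 (0.16) were higher in replicate 2 and Egfl7 (-0.33) higher in replicate 1, with a list median of 0.21, equal to that of the members, and a summed TPM of 54.47 and 50.96. Higher in replicate 1 were 1 of 3 macrophage markers and 1 of 2 erythroid markers, and no Schwann cell or adipocyte marker passed (0 of 3 each). With 1 group and 2 libraries, the ratios of the mitochondrial ribosomal protein genes and these marker differences cannot be told apart, nor, in bulk tissue, can fewer cells of a type be told from less RNA per cell.

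**Figure D5:**
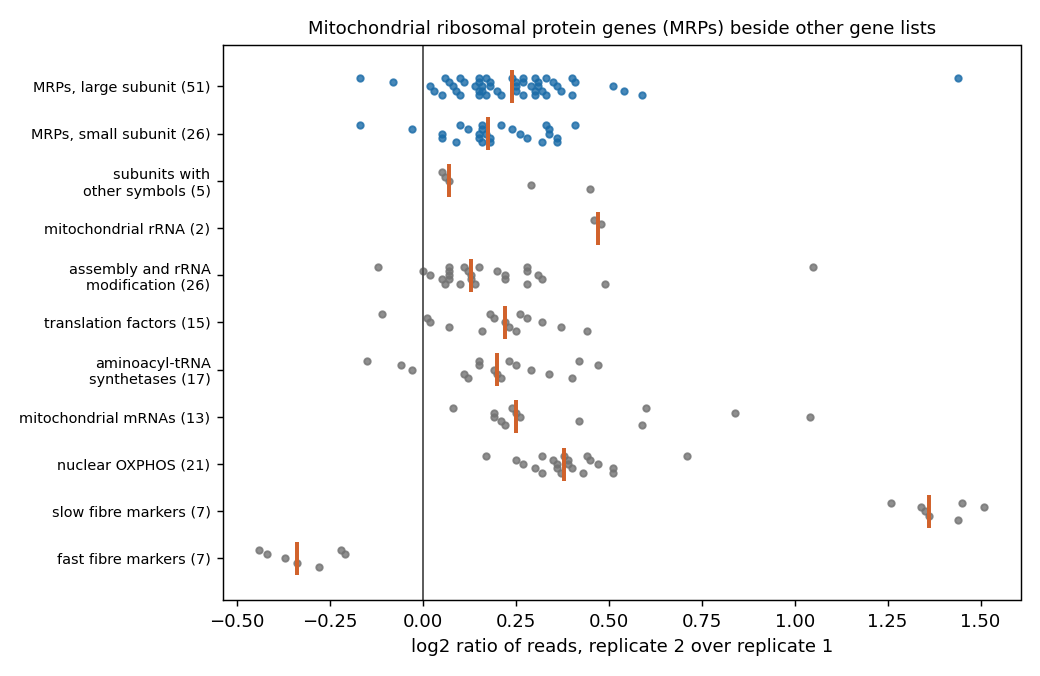
Log2 ratio of reads, replicate 2 over replicate 1, for each gene of each list (points) with the list's median (vertical bars) and the number of genes in parentheses. Mitochondrial ribosomal protein genes lie mostly above 0, below the nuclear oxidative phosphorylation genes (median 0.38), with slow-fibre markers far to the right (1.36) and fast-fibre markers to the left (-0.34).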

How the data were processed

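Total RNA-seq tables of 2 gastrocnemius libraries (1 group) were analysed, with the groups taken from the labels. The genome was mm10 with the GENCODE M21 annotation, per the file headers. Programs and versions were not given in the sources used here. Expected counts and TPM, posterior mean counts and posterior mean TPM, with a posterior SD of the count (a score), stand in the first tables per gene and transcript, as deposited by the authors. In the second tables the authors deposited estimated counts and TPM of transcripts, which were summed to genes. Expected counts were rounded to whole numbers before testing.

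Library sizes were scaled by TMM factors (edgeR 4.0.16 in R 4.3.3), with DESeq2 1.42.0 size factors, library totals and ERCC spike-ins as alternatives. With 1 group, edgeR's quasi-likelihood test had no groups to compare, so replicate 2 was compared with replicate 1 by the exact binomial test of reads (two-sided, conditional on their sum) (SciPy 1.17.1, pandas 2.3.3, Python 3.11.15) over genes whose counts summed to 20 or more, adjusted by Benjamini-Hochberg and called at an adjusted p under 0.05. Log2 ratios used a pseudocount of 0.5, and their 95% intervals are counting intervals. The test was tried before use on simulated counts that varied by counting error alone, so that trial does not cover variation between libraries. Depth was 42724520 and 42280091 reads on genes, so ratios of genes with few reads are imprecise. Near-identical copies were found with BLAST+ 2.17.0 among GENCODE M21 transcripts (at least 95% identity over at least 200 bases). Promoter letters are from RefSeq (GRCm38.p6).

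Members and gene lists were chosen with earlier results of these data known. The rule for named genes took, per subunit, the 5 highest and 5 lowest by mean TPM, the 6 largest ratios each way where counts summed to 200 or more, the 5 largest differences each way between the tables, genes whose leading transcript differs or is not coding, genes with a near-identical copy or overlapping gene, the S18 paralogues, and Mrpl12, Mrps30 and Mrps36. Partner lists were named by their highest levels and largest called ratios. Alternatives tried are reported in the closing section. Genes the rule takes for a copy or an overlapping gene are in part given only as counts, and 1 partner gene is not reported here.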

Additional observations from a re-analysis of the deposited data

How the results depend on the processing

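Alternative processing kept the direction of the comparison between the libraries. The number of genes higher in replicate 2 was 47 in the analysis as reported. It was 42 with DESeq2 size factors, 40 with library totals, 53 with ERCC spike-in scaling, 44 with no minimum count, 47 with a minimum summed count of 200, 52 in the second tables and 45 with posterior mean counts. It was 46 with the reads of pseudogenes added to their members and 32 when a ratio of at least 1.2-fold was also asked, 2 alternatives chosen after seeing the data. None of these called a gene higher in replicate 1. The median log2 ratio of the genes ran from 0.17 (library totals) to 0.26 (ERCC scaling and second tables), and ERCC scaling moved the median of all genes to 0.05. Mrpl32 changed sign to -0.02 with library totals and to -0.03 in the second tables, and Mrps18c to 0.02 with ERCC scaling; none was called. Leaving aside the 1.2-fold requirement, the calls lost under at least 1 alternative were, beyond Mrpl23, those of Mrpl10, Mrpl33, Mrpl37, Mrpl38, Mrpl39, Mrps7 and Mrps15.

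The summed TPM was 3585 in the second tables and 5474 when TPM was rescaled over protein-coding nuclear genes, against 2174, and the median TPM 33.5 and 55.5 against 21.99. The rescaling leaves all other genes out of the denominator; rescaled alike, the second tables were at a median log2 difference of -0.06 from the first. The log2 ratio of large over small subunit was 1.25 in the second tables, against 1.21. Leaving out a library gave sums of 2063 to 2286 TPM, medians of 19.99 to 22.85 and 55 to 58 genes with the same leading transcript in both kinds of table (56 with both libraries, 63 by counts). No paired analysis was possible because the design holds 1 group.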
